A study of Mus musculus with 3 samples.

Results

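The 5 genes described here encode the core of the LKB1 kinase complex, and were chosen by name from the 31053 genes of the deposited count tables. They are Stk11, which encodes the kinase LKB1, Strada and Stradb, which encode the STRAD pseudokinases, and Cab39 and Cab39l, which encode the scaffold paralogs MO25α and MO25β. LKB1 is a tumour suppressor kinase that works as a complex: a pseudokinase of the STRAD family binds it and turns it on, and a MO25 scaffold clamps both together. The active complex phosphorylates the activation loop of AMPK and of the AMPK-related kinases, which govern energy metabolism and cell polarity. MO25 proteins also bind and activate several kinases of the STE20 family without LKB1.

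Single cells of mouse bladder urothelium, the stratified lining of the bladder, were profiled with 10x Genomics 3' tags in 3 libraries. One came from Cab39l knockout mice, one from Lpar6 knockout mice (Lpar6 encodes a lysophosphatidic acid receptor) and one from wild-type mice, and each pooled the cells of 15 mice. The labels do not give which exons the knockout alleles lack, nor the strain, sex or age, and animals within a pool cannot be told apart. Cells were released with trypsin injected into the bladder, and red blood cells were removed on a Ficoll gradient. Since each genotype has 1 library, differences could not be checked in replicates and none was tested; the 95% intervals cover counting error alone.

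The question was whether Cab39 is higher where its paralog Cab39l is lost. It was not higher in the urothelial cells of these libraries. Cab39 was level between the Cab39l knockout and the Lpar6 knockout libraries, and in both knockouts it was lower than in wild type. Many other genes were lower too: 34.5% of all genes counted were at least 1.5-fold lower in the Cab39l knockout and 33.4% in the Lpar6 knockout. With scaling that centres on the bulk of genes, Cab39 fell short of 1.5-fold in both. Cab39l tags were 2.96-fold lower in the Cab39l knockout than in the Lpar6 knockout but were not gone, and the remaining level differed with the mitochondrial share of the barcodes. Stk11, Strada and Stradb differed between the knockouts by a log2 of 0.18 or less.

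Levels are given as CPM: the unique molecular identifiers (UMIs) of a gene, summed over the cells of a class and library and scaled to a common total by all UMIs of the same cells. A barcode counted as urothelial with at least 5000 UMIs, at most 20% mitochondrial UMIs and at least 0.2% of UMIs from the uroplakin genes Upk1a, Upk1b, Upk2 and Upk3a, which encode the plaques of the urothelial surface. The rule passed 5466 of 9406 barcodes in the Cab39l knockout, 4834 of 8293 in the Lpar6 knockout and 3176 of 8085 in wild type. Their UMIs summed to 159977320, 128620816 and 78491895 in that order of libraries, with medians of 29960.5, 26994 and 22252.5 UMIs per cell. The wild-type library stood apart. Its urothelial cells had a median mitochondrial share of 9.02%, against 6.17% in the Cab39l knockout and 6.27% in the Lpar6 knockout, and long transcripts took a larger share of its UMIs. Uroplakin tags made up a median of 0.947% of UMIs in Cab39l knockout, 1.02% in Lpar6 knockout and 0.714% in wild-type urothelial cells. Any 2 libraries shared 16 to 19 cell barcodes.

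The paralogs can be told apart by their reads. In GENCODE vM21 (GRCm38), Cab39l (ENSMUSG00000021981) lies on the plus strand at chr14:59440972-59585764, and Cab39 (ENSMUSG00000036707) on the plus strand at chr1:85793441-85851576. Their coding sequences were identical at 760 of 1005 aligned bases (75.6%), and the 2 genes' transcripts shared no run of 31 bases. The counted tags come from 3' ends, and the last 500 bases of the transcripts shared no such run either. The 90-base window below is the in-frame coding stretch of that length in which the 2 genes are most alike. It spans coding bases 718 to 807 of Cab39l and 721 to 810 of Cab39, read 5′ to 3′, and capitals mark the 13 bases that differ.
Cab39l: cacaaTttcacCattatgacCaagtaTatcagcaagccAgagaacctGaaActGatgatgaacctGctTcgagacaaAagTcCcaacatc
Cab39: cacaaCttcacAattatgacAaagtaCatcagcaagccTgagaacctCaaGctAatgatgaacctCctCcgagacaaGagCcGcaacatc
Even in this window 77 of 90 bases were identical and the differences were scattered along it. The pseudokinase genes were less alike still, with 740 of 1231 aligned coding bases identical (60.1%) and no shared run of 31 bases.

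Cab39l, the targeted scaffold gene, was lowest in its own knockout. It stood at 31.7 CPM (30.9 to 32.6) in the Cab39l knockout, 94.0 CPM (92.3 to 95.6) in Lpar6 knockout cells and 112.4 CPM (110.1 to 114.8) in wild-type cells. The Cab39l knockout was below both other libraries, with intervals far apart. Its log2 ratio was -1.57 (-1.61 to -1.52) over the Lpar6 knockout, 2.96-fold lower, and -1.83 (-1.88 to -1.78) over wild type, 3.54-fold lower. The 5077 Cab39l UMIs left in the Cab39l knockout library are 3' tags, which check the deletion only if the deleted part holds the counted end of the transcript.

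Cab39, the paralog, stood at 69.6 CPM (68.3 to 70.9) in the Cab39l knockout, 70.9 CPM (69.5 to 72.4) in Lpar6 knockout cells and 132.8 CPM (130.3 to 135.4) in wild-type cells. The knockout libraries had overlapping intervals, and wild type was higher than both. The log2 ratio of Cab39l knockout over Lpar6 knockout was -0.03 (-0.07 to 0.01), so within counting error the 2 libraries differed by a log2 of at most 0.07 in either direction. Over wild type it was -0.93 (-0.97 to -0.89) in the Cab39l knockout and -0.90 (-0.95 to -0.86) in the Lpar6 knockout. Both ratios share the wild-type library as their denominator.

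**Figure D1:**
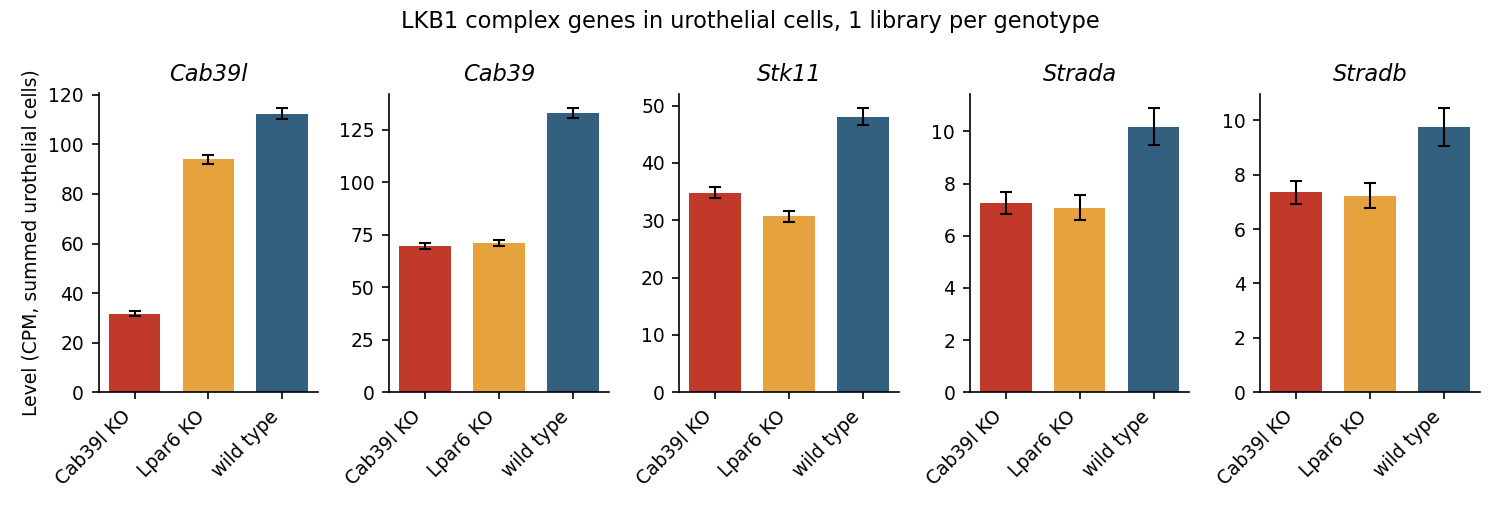
Levels of the 5 genes (CPM over all urothelial cells of a library, 1 panel per gene with its own axis) in the Cab39l knockout, Lpar6 knockout and wild-type libraries, with 95% Poisson intervals. Cab39l is lowest in the Cab39l knockout (31.7 CPM), while Cab39 is nearly equal in both knockouts (69.6 and 70.9 CPM) and highest in wild type (132.8 CPM).

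Stk11 (ENSMUSG00000003068, plus strand, chr10:80115803-80130682), the kinase gene, stood at 34.8 CPM (33.9 to 35.7) in the Cab39l knockout, 30.7 CPM (29.8 to 31.7) in Lpar6 knockout cells and 48.1 CPM (46.5 to 49.6) in wild-type cells. It was the member with the largest excess in the Cab39l knockout over the Lpar6 knockout, at a log2 of 0.18 (0.12 to 0.24), a ratio of 1.13. Over wild type its log2 ratio was -0.47 (-0.53 to -0.41) in the Cab39l knockout and -0.65 (-0.71 to -0.58) in the Lpar6 knockout. With TMM scaling these were -0.040 (-0.10 to 0.02) and -0.23 (-0.29 to -0.16). In the Cab39l knockout the Stk11 difference from wild type was thus within counting error with TMM. With median-of-ratios scaling it was small but outside counting error, at -0.064 (-0.123 to -0.0036). Exons of Stk11 overlap those of Cbarp on the opposite strand. Cbarp itself was counted at 2.83 CPM in the Cab39l knockout, 2.59 CPM in the Lpar6 knockout and 4.24 CPM in wild type.

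The pseudokinase genes were sparse. Strada (ENSMUSG00000069631, minus strand, chr11:106163330-106202168) stood at 7.26 CPM (6.85 to 7.69) in the Cab39l knockout, 7.08 CPM (6.62 to 7.55) in Lpar6 knockout cells and 10.2 CPM (9.49 to 10.9) in wild-type cells. Stradb (ENSMUSG00000026027, plus strand, chr1:58973522-58995715) stood at 7.35 CPM (6.94 to 7.78) in the Cab39l knockout, 7.22 CPM (6.77 to 7.70) in Lpar6 knockout cells and 9.75 CPM (9.07 to 10.5) in wild-type cells. Both had overlapping intervals in the knockouts and were higher in wild type in CPM. With TMM scaling the differences from wild type were within counting error for both genes. The Strada log2 ratio over wild type was then -0.062 (-0.193 to 0.070) in the Cab39l knockout and -0.105 (-0.244 to 0.034) in the Lpar6 knockout. That of Stradb was 0.020 (-0.113 to 0.153) and -0.013 (-0.152 to 0.127) in the same order. Between the knockouts their log2 ratios were 0.04 (-0.09 to 0.16) for Strada and 0.03 (-0.10 to 0.15) for Stradb. The UMI ratio of Strada to Stradb hardly moved, at 0.987 (0.910 to 1.07) in the Cab39l knockout, 0.980 (0.893 to 1.07) in the Lpar6 knockout and 1.04 (0.945 to 1.15) in wild type.

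Set against all genes, Cab39l was the 1 member called between the knockouts. A gene entered this count with at least 50 UMIs over both libraries and at least 20 CPM in the higher one, and was called at 1.5-fold or more. Cab39l, Cab39 and Stk11 passed both limits, while Strada and Stradb passed the UMI limit but lay under 20 CPM. In Cab39l knockout over Lpar6 knockout, 1 of these 3 members was called lower (Cab39l) and 0 higher, beside 0.635% of all 4570 genes lower and 0.656% higher. Cab39l is the gene targeted in that library, so its call says nothing of the complex as a set. Cab39 and Stk11 were not called. The median log2 was -0.03 over the 3 members and -0.01 over all genes.

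Against wild type the background was much broader. In Cab39l knockout over wild type, 2 of the 3 members were called lower (Cab39l, the targeted gene, and Cab39) and 0 higher. Beside them 34.5% of 5530 genes were lower and 1.27% higher, with a median log2 of -0.32 over all genes. With TMM or median-of-ratios scaling, which centre on the bulk of genes, 1 member was called lower (Cab39l), and the Cab39 call was lost. In Lpar6 knockout over wild type, 2 of 3 were called lower (Cab39 and Stk11) and 0 higher, beside 33.4% of 5519 genes lower and 1.63% higher, with a median of -0.35. With either scaling 0 of 3 were called there: Cab39 was -0.49 and Stk11 -0.23 with TMM. The share of all genes called was not counted with either scaling, so the counts with scaling have no background to be read against. Without these scalings about 1 in 3 genes were called lower in either knockout. In Cab39l knockout over wild type 0.217% of genes lay below Cab39l and 10.0% below Cab39.

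Transcript length moved with the difference from wild type. Genes were cut into 10 equal bins by length, and the bin that holds Cab39 (3.81 kb) had a median log2 of -0.56 in Cab39l knockout over wild type, with 9.04% of its genes lower than Cab39. Less that median, the Cab39 log2 ratio was -0.37, and with TMM scaling, which moves all ratios of the 2 libraries by 0.43, it was -0.51, both short of 1.5-fold. Cab39l (3.04 kb) lay at -1.41 against the median of its own bin, -0.42, and 0.181% of the bin lay below it. Stradb (2.96 kb) lay at 0.01 against the same median, so its distance from wild type was that of its bin. Stk11 (2.57 kb) lay at -0.19 and Strada (2.10 kb) at -0.39 against their bins.

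**Figure D2:**
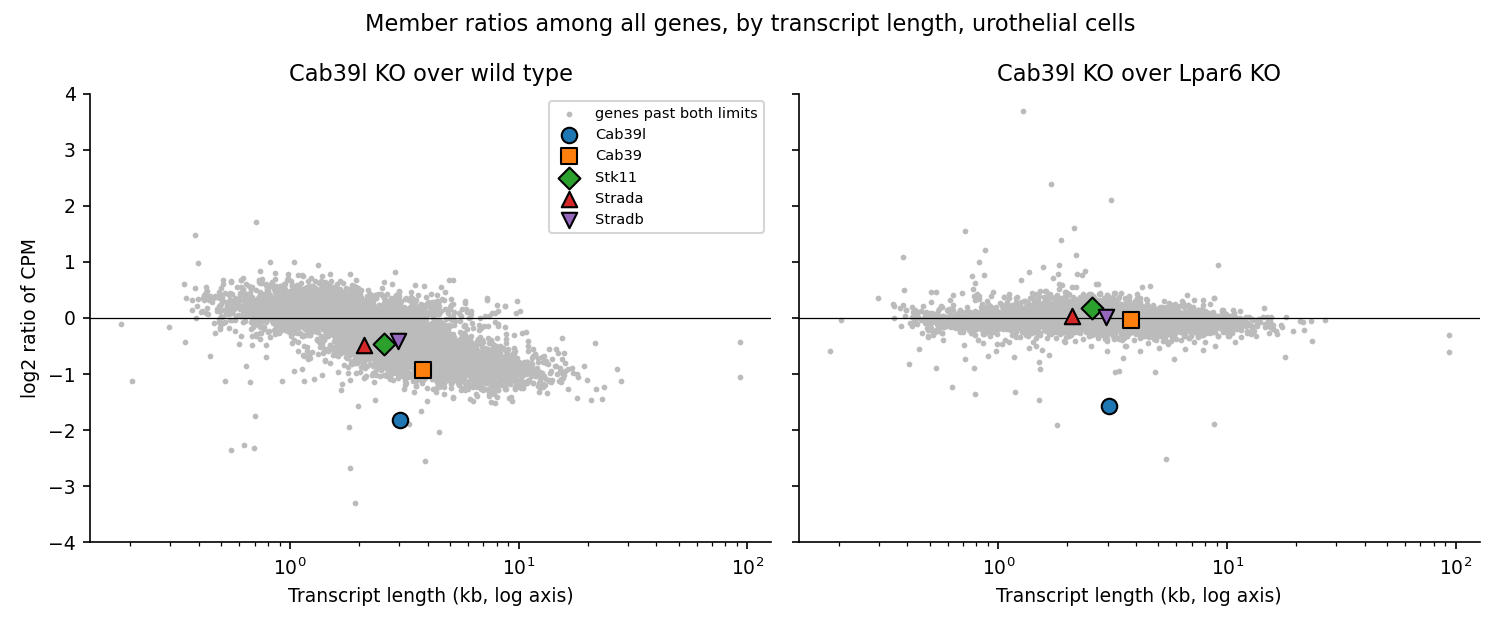
Log2 ratio of CPM (vertical axis) by transcript length in kb (horizontal log axis) for all genes past both limits (grey) and the 5 members (large markers), Cab39l knockout over wild type at left and over Lpar6 knockout at right. Longer genes lie lower against wild type and only slightly so between the knockouts, and Cab39l lies apart in both panels; 7 genes at left and 4 at right lie beyond the axis limit of 4.

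Within a library the balance of the 2 scaffold genes does not depend on scaling. Cab39l gave 0.456 UMIs (0.441 to 0.472) per Cab39 UMI in the Cab39l knockout, 1.32 (1.29 to 1.36) in the Lpar6 knockout and 0.847 (0.823 to 0.871) in wild type. The ratio is one of 3' tags and is compared between libraries, not read as a ratio of molecules. Cab39l tags made up 31.3% of the pair in the Cab39l knockout, 57.0% in the Lpar6 knockout and 45.8% in wild type. The summed level of both genes was 101.3 CPM (99.8 to 102.9), 164.9 CPM (162.7 to 167.1) and 245.3 CPM (241.8 to 248.7) in the Cab39l knockout, the Lpar6 knockout and wild type. The sum was lowest in the Cab39l knockout.

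In single cells the remaining Cab39l tags were spread over many cells. With every urothelial cell thinned to 5000 UMIs, a Cab39l UMI was found in 15.1% of Cab39l knockout cells (14.1 to 16.1), 38.1% of Lpar6 knockout cells (36.7 to 39.5) and 42.4% of wild-type cells (40.7 to 44.1). Without thinning these shares were 57.2%, 87.7% and 86.5% in the same order. In the Cab39l knockout 84.9% of thinned cells had no Cab39l UMI, where a Poisson count of the same mean gives 85.1%, and the variance was 0.975 times the mean. No cell held more than 3 of these UMIs. Separate groups of cells with and without Cab39l were not detectable at this depth.

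Cab39 shares followed its levels. After thinning, a Cab39 UMI was found in 29.1% of Cab39l knockout cells (27.9 to 30.4), 30.3% of Lpar6 knockout cells (29.0 to 31.6) and 48.4% of wild-type cells (46.7 to 50.2). Stk11 was found in 17.0% of Cab39l knockout cells, 15.1% of Lpar6 knockout cells and 22.3% of wild-type cells. Within the Cab39l knockout, Cab39 was found in 30.8% of cells with a Cab39l UMI (27.7 to 34.1) and in 28.8% of those without (27.5 to 30.2). The same shares were 30.1% and 30.3% in the Lpar6 knockout and 51.3% and 46.3% in wild type. At this depth a cell that lacks Cab39l cannot be told from one whose tags were not sampled. The split therefore cannot show whether Cab39 is higher where Cab39l is lost.

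Along the range from basal to luminal cells, Cab39 of the Cab39l knockout stayed close to that of the Lpar6 knockout and below that of wild type. Urothelial cells were cut at the wild-type tertiles of a score of the basal genes Krt5 and Trp63 over the luminal genes Krt20 and Upk2, which gives 3 parts of a range and not cell types; 13.4% of Cab39l knockout, 14.9% of Lpar6 knockout and 11.8% of wild-type cells lay within 0.1 of a cut. From the basal to the luminal part, Cab39 stood at 68.0, 69.2 and 72.6 CPM in the Cab39l knockout, at 71.1, 70.9 and 70.9 CPM in the Lpar6 knockout and at 106.4, 131.2 and 154.6 CPM in wild type. In the luminal part the intervals of the knockouts overlapped, at 69.9 to 75.4 CPM in the Cab39l knockout and 68.3 to 73.4 CPM in the Lpar6 knockout. Wild type was higher in each later part, and its median mitochondrial share was too, at 7.16%, 8.79% and 10.8%, against 6.04%, 6.16% and 6.53% in the Cab39l knockout and 6.17%, 6.22% and 6.46% in the Lpar6 knockout. The part of this share in the wild-type course was not tested. Cab39l had a similar order, with 30.8, 32.2 and 32.2 CPM in the Cab39l knockout, 88.9, 95.3 and 95.1 CPM in the Lpar6 knockout and 93.9, 111.8 and 127.2 CPM in wild type.

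Stk11 ran the other way in the knockouts. It stood at 37.6, 34.1 and 31.7 CPM from basal to luminal in the Cab39l knockout and at 34.6, 30.4 and 28.8 CPM in the Lpar6 knockout. In wild type it was nearly level, at 47.0, 47.5 and 49.4 CPM. None of these gradients was tested.

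The comparison was repeated within clusters. Of 20 clusters, 9 held at least 50 urothelial cells of every library, and are named by number and leading genes. Cab39l was lower in the Cab39l knockout in 9 of 9, with log2 ratios from -1.65 to -0.70 over the Lpar6 knockout and from -1.76 to -0.91 over wild type. Cab39 was lower in the Cab39l knockout than in the Lpar6 knockout in 5 of 9 and higher in 4, with log2 ratios from -0.12 to 0.05. Over wild type Cab39 was lower in 9 of 9 in the Cab39l knockout (-0.93 to -0.16), and in 9 of 9 in the Lpar6 knockout (-0.81 to -0.19).

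Cluster 5, led by Gm42418 and Hist1h1e, stood out. Its Cab39l level was 74.9 CPM (60.1 to 92.3) in 59 Cab39l knockout cells, 121.3 CPM (100.2 to 145.7) in 55 Lpar6 knockout cells and 141.2 CPM (136.5 to 146.0) in 977 wild-type cells. That was the highest Cab39l level among the 9 clusters in each library, and wild type supplied most of its cells. Cab39 was also highest there, at 91.9 CPM in the Cab39l knockout, 100.2 CPM in the Lpar6 knockout and 175.5 CPM in wild type. In cluster 3, led by Krt15 and Trf, the libraries lay closest for Cab39, at 64.7, 63.4 and 72.3 CPM in that order of genotypes.

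**Figure D3:**
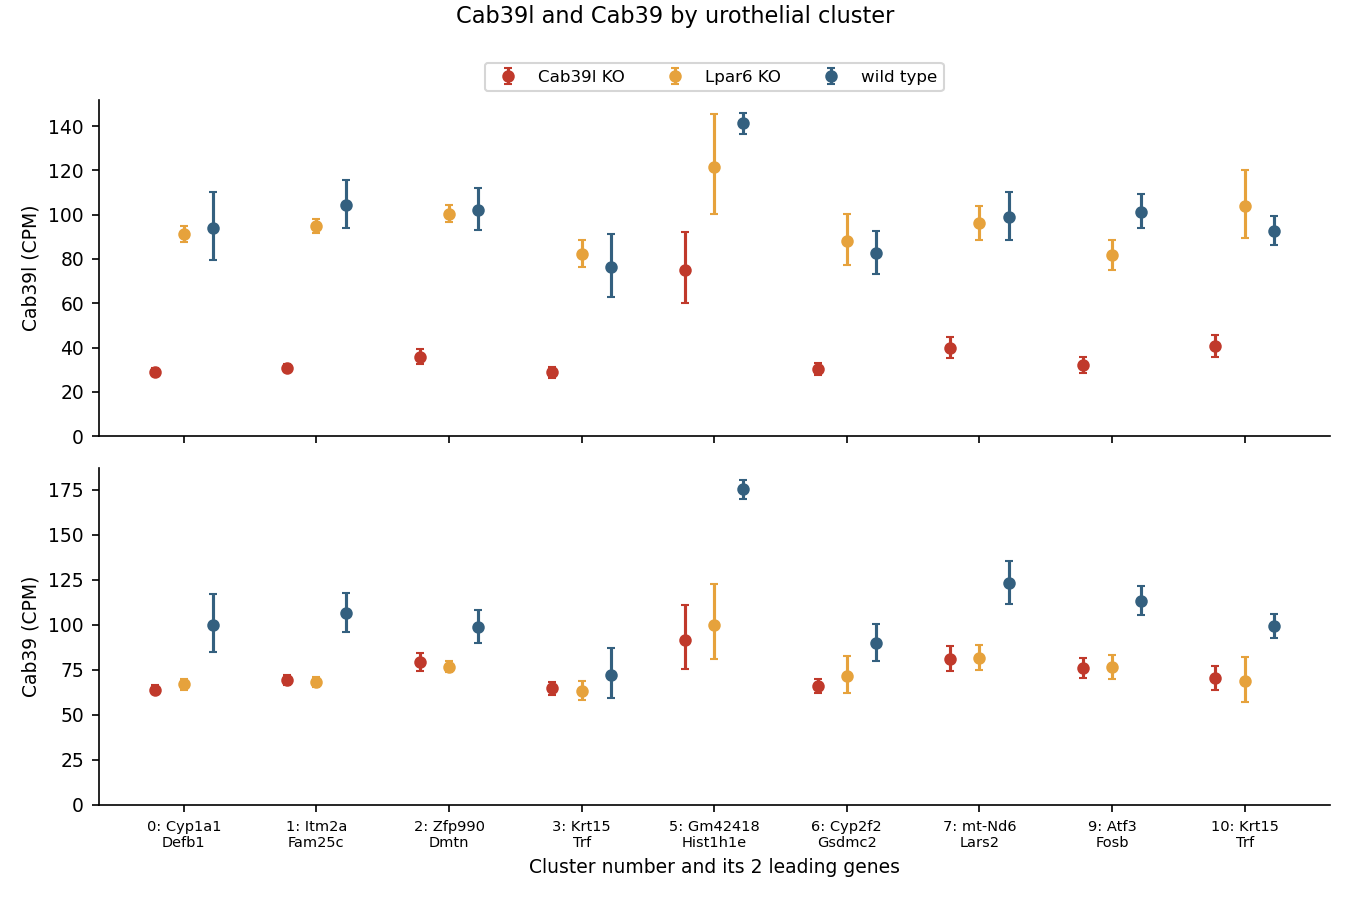
Levels of Cab39l (top) and Cab39 (bottom) in CPM with 95% Poisson intervals in the 9 clusters with at least 50 urothelial cells per library, Cab39l knockout left, Lpar6 knockout middle, wild type right. The Cab39l knockout is lowest for Cab39l in every cluster and highest among its own clusters in cluster 5 (74.9 CPM), while its Cab39 lies beside that of the Lpar6 knockout.

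The level of the remaining Cab39l tags differed with the mitochondrial share. Barcodes with at least 5000 UMIs and 0.2% uroplakin UMIs were binned at 0 to 5, 5 to 10, 10 to 20, 20 to 40 and 40 to 100% mitochondrial UMIs, without the limit of 20%. From the lowest to the highest bin, Cab39l stood at 26.8, 31.3, 41.0, 53.4 and 58.3 CPM in the Cab39l knockout. In the Lpar6 knockout it was 91.0, 94.6, 88.5, 91.9 and 84.1 CPM. In wild type it was 78.3, 102.6, 137.5, 126.0 and 85.2 CPM.

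The gap between the knockouts narrowed across these bins. The log2 ratio of Cab39l knockout over Lpar6 knockout was -1.76 (-1.93 to -1.60) in the lowest bin, -1.60, -1.11 and -0.78 in the next ones and -0.53 (-0.97 to -0.08) in the highest. The Cab39 ratio of the same libraries had no such course, at 0.05, -0.01, -0.23 (-0.37 to -0.09), -0.16 and 0.14. The share of UMIs from Malat1, a nuclear RNA, moved with the bins, at 0.771, 0.850, 1.42, 3.07 and 3.401% in the Cab39l knockout and 1.01, 1.06, 1.88, 4.56 and 4.85% in the Lpar6 knockout. Median depth moved too, from 30049 UMIs in the lowest to 6378 UMIs in the highest bin of the Cab39l knockout. Their part in the Cab39l course was not tested.

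Other members moved with the mitochondrial share in every library. Strada stood at 6.86, 7.002, 9.85, 17.3 and 19.97 CPM in the Cab39l knockout, at 7.06, 6.90, 9.33, 17.9 and 18.2 CPM in the Lpar6 knockout and at 3.60, 8.95, 13.7, 22.9 and 29.8 CPM in wild type. Stradb did not share this course in the knockouts, at 6.51, 7.50, 7.09, 7.90 and 5.94 CPM in the Cab39l knockout and 8.08, 7.29, 5.53, 10.4 and 7.95 CPM in the Lpar6 knockout. In the highest bin Strada lay above Stradb in tags in each library, with 37 Strada and 11 Stradb UMIs in the Cab39l knockout, 16 and 7 in the Lpar6 knockout and 70 and 24 in wild type. Scaled by non-mitochondrial UMIs alone, Cab39l of the Cab39l knockout was 28.1 CPM in the lowest and 113.8 CPM in the highest bin, and that of the Lpar6 knockout 95.3 and 155.4 CPM.

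**Figure D4:**
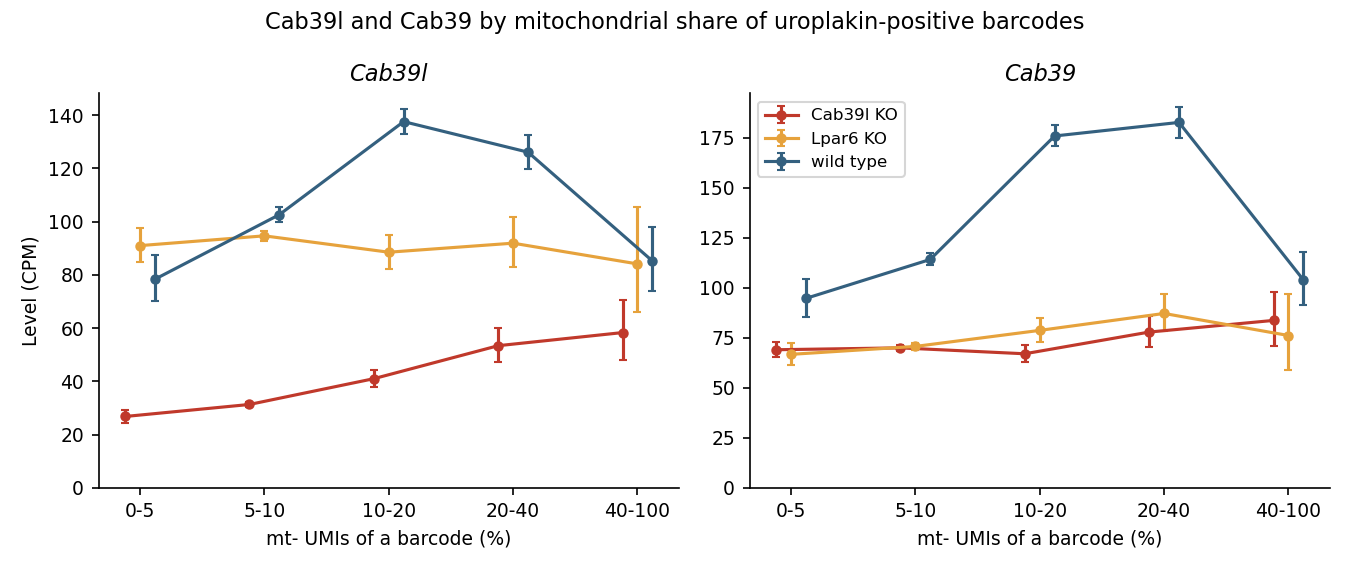
Levels of Cab39l (left) and Cab39 (right) in CPM with 95% Poisson intervals by percent of mitochondrial UMIs, in uroplakin-positive barcodes of the Cab39l knockout, Lpar6 knockout and wild-type libraries. Cab39l of the Cab39l knockout lies higher in each later bin (26.8 to 58.3 CPM) while that of the Lpar6 knockout stays between 84.1 and 94.6 CPM.

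Other cell classes held far fewer UMIs. B-like, T or NK-like, macrophage or dendritic-like and neutrophil-like cells, named from marker genes and pooled as immune-like, numbered 216 in the Cab39l knockout, 107 in the Lpar6 knockout and 719 in wild type. Their median depths were 3296, 2166 and 2783 UMIs. Uroplakin tags reached 13.2%, 20.8% and 13.4% of their urothelial level in these cells. The urothelial Cab39l level times that share is 4.19 CPM in the Cab39l knockout, 19.5 CPM in the Lpar6 knockout and 15.1 CPM in wild type. The part of urothelial RNA in the immune-like values was not tested.

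Immune-like cells also had less Cab39l in the Cab39l knockout. Cab39l stood at 21.9 CPM (13.7 to 33.2) in the Cab39l knockout, 58.3 CPM (34.6 to 92.2) in Lpar6 knockout cells and 39.5 CPM (32.2 to 48.0) in wild-type cells. The log2 ratio of the Cab39l knockout was -1.41 (-2.38 to -0.43) over the Lpar6 knockout and -0.85 (-1.59 to -0.17) over wild type. Cab39 stood at 65.8 CPM (50.9 to 83.7), 58.3 CPM (34.6 to 92.2) and 85.6 CPM (74.7 to 97.7) in the same order, with overlapping intervals. Its log2 ratio in the Cab39l knockout was 0.17 (-0.60 to 1.01) over the Lpar6 knockout and -0.38 (-0.80 to 0.02) over wild type. Thinned to 1500 UMIs, a Cab39l UMI was found in 3.14% of immune-like and 4.83% of urothelial cells of the Cab39l knockout, 6.76% and 12.6% in the Lpar6 knockout and 6.41% and 14.5% in wild type. Neutrophil-like cells were found in wild type alone (52 cells), so the pooled class does not hold the same cells in each library.

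Stk11 in immune-like cells was 55.8 CPM (42.2 to 72.5) in the Cab39l knockout, 58.3 CPM (34.6 to 92.2) in Lpar6 knockout cells and 38.0 CPM (30.8 to 46.3) in wild-type cells. Here the knockouts lay above wild type, the reverse of the urothelial order. The log2 ratio over wild type was 0.56 (0.05 to 1.04) in the Cab39l knockout and 0.62 (-0.19 to 1.35) in the Lpar6 knockout. Thinned to 1500 UMIs, a Stk11 UMI was found in 6.81% of 191 Cab39l knockout cells, 9.46% of 74 Lpar6 knockout cells and 5.92% of 608 wild-type immune-like cells, all with wide intervals. Urothelial cells thinned alike gave 5.23%, 4.36% and 7.56%.

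Cab39 varied between immune classes in wild type. T or NK-like cells had 127.4 CPM (101.8 to 157.6), B-like cells 68.5 CPM (48.5 to 94.0) and macrophage or dendritic-like cells 68.5 CPM (54.7 to 84.7). The T or NK-like interval lay above both others. In the Cab39l knockout, 30 T or NK-like cells gave 132.6 CPM (68.5 to 231.6), with 12 UMIs behind the value.

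A cluster of prostate or seminal vesicle-like cells had the widest gaps in Cab39l among the classes with a name, at 19.6 CPM (11.8 to 30.7) in 109 Cab39l knockout cells, 275.9 CPM (126.2 to 523.8) in 11 Lpar6 knockout cells and 174.3 CPM (109.2 to 263.9) in 31 wild-type cells. Only 9 and 22 UMIs stand behind the Lpar6 knockout and wild-type values. Uroplakin tags stood at 8.88%, 22.6% and 22.1% of their urothelial level in these cells of the Cab39l knockout, the Lpar6 knockout and wild type. Cab39 was lower there as well in the Cab39l knockout, at 30.0 CPM (20.1 to 43.0), against 122.6 CPM (33.4 to 314.0) in Lpar6 knockout cells and 118.9 CPM (66.5 to 196.0) in wild-type cells. An unnamed cluster led by Akr1b7 and Crisp1 had 9.68 CPM of Cab39l (3.14 to 22.6) in the Cab39l knockout and 71.5 CPM (44.8 to 108.3) in wild type. These values rest on 5 and 22 UMIs, from cells with median depths of 1674 and 4129 UMIs. Uroplakin tags stood at 18.9% and 9.47% of their urothelial level in these cells, so the 2 libraries differ there in more than genotype. In 15 fibroblast-like cells of the Cab39l knockout no Cab39l UMI was seen, which allows up to 72.4 CPM at 3 counts, so nothing can be said of that class.

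**Figure D5:**
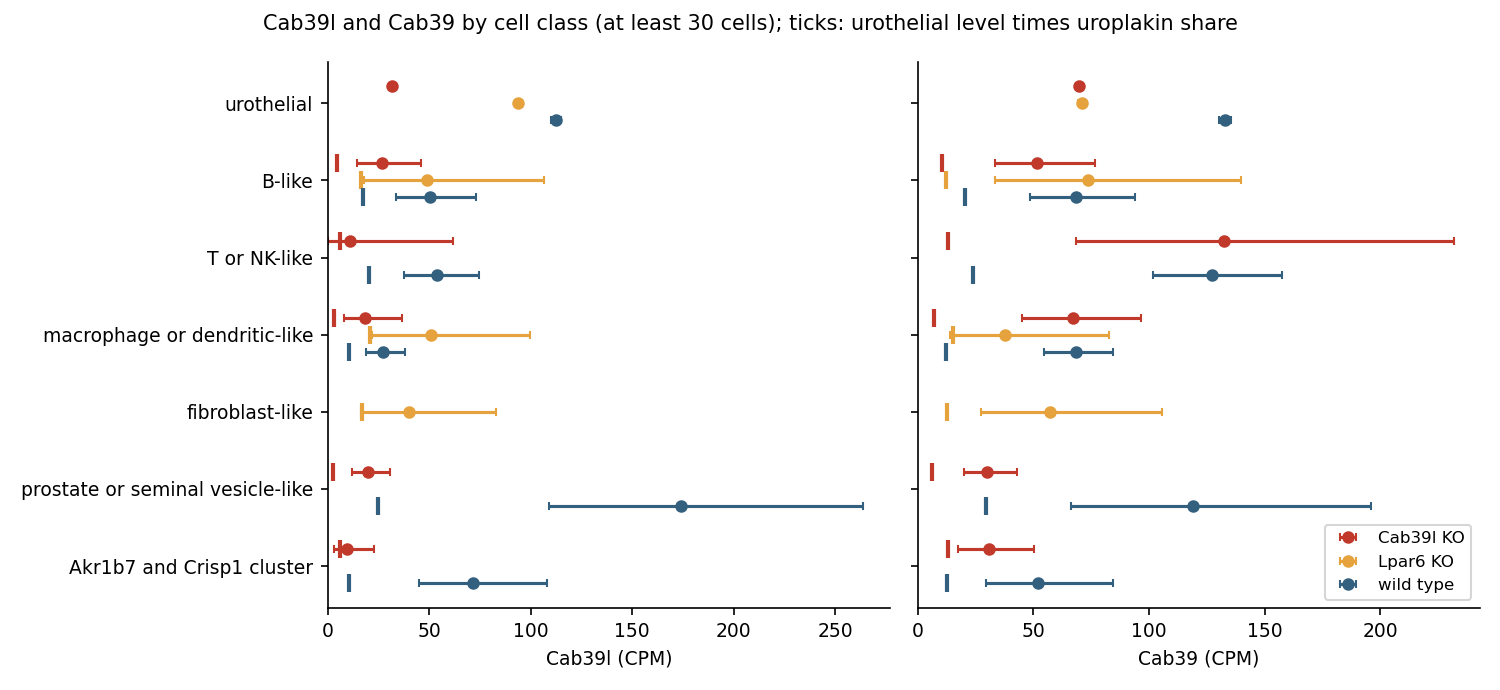
Levels of Cab39l (left) and Cab39 (right) in CPM with 95% Poisson intervals by cell class, for libraries with at least 30 cells of the class, Cab39l knockout above Lpar6 knockout above wild type. Vertical ticks give the urothelial level times the share of uroplakin tags; among prostate or seminal vesicle-like cells Cab39l is 19.6 CPM in the Cab39l knockout and 174.3 CPM in wild type.

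The kinases that the LKB1 complex activates were near level between the knockouts where they passed both limits. In Cab39l knockout over Lpar6 knockout, 3 of 14 substrate kinases passed both limits, 0 were called in either direction, and their median log2 was 0.10, beside -0.01 over all genes. Mark2, a regulator of microtubules and polarity, stood at 90.6 CPM in the Cab39l knockout, 84.8 CPM in the Lpar6 knockout and 140.8 CPM in wild type. Mark3 stood at 28.7, 29.0 and 53.4 CPM, and Snrk at 20.1, 18.8 and 34.4 CPM, in the same order. Over wild type 5 passed both limits, and 5 of 5 (Mark2, Mark3, Sik1, Sik2 and Snrk) were called lower in either knockout, with a median of -0.90 in the Cab39l knockout and -0.88 in the Lpar6 knockout. All genes gave 34.5% lower and a median of -0.32 in the Cab39l knockout, and 33.4% and -0.35 in the Lpar6 knockout. Of these 5, 2 in the Cab39l knockout and 3 in the Lpar6 knockout reached 20 CPM in wild type alone, so the limit itself favoured a lower value. With TMM scaling 2 of 5 stayed called in the Cab39l knockout (Sik1 and Sik2) and 1 of 5 in the Lpar6 knockout (Sik2). Sik1 (12.7, 13.4 and 26.2 CPM in the same order) and Sik2 (11.2, 11.5 and 25.9 CPM) are among those that reached 20 CPM in wild type alone. Every call left with TMM was thus of a gene for which the limit favoured a lower value. The share of all genes called with TMM was not counted.

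Among the STE20 kinases that bind MO25, Stk25 stood apart from the others. In Cab39l knockout over Lpar6 knockout, 4 of 5 passed both limits, 0 were called, and the median log2 was -0.12. Stk25, a kinase of the Golgi, had the largest difference of the list, at 41.5 CPM (40.5 to 42.5) in the Cab39l knockout, 28.2 CPM (27.3 to 29.2) in Lpar6 knockout cells and 34.1 CPM (32.8 to 35.4) in wild-type cells. Its log2 ratio was 0.56 (0.50 to 0.62) over the Lpar6 knockout and 0.29 (0.22 to 0.35) over wild type, so the Cab39l knockout was above both. Stk24 stood at 44.7, 48.4 and 76.6 CPM and Stk39, which acts on cation-chloride cotransporters, at 29.6, 33.5 and 41.0 CPM in the same order. Over wild type 2 of 5 (Stk24 and Oxsr1) were called lower in either knockout, beside 34.5% of all genes in the Cab39l knockout and 33.4% in the Lpar6 knockout. Oxsr1 reached 20 CPM in wild type alone, so for it the limit itself favoured a lower value. The medians were -0.52 in the Cab39l knockout and -0.40 in the Lpar6 knockout, beside -0.32 and -0.35 over all genes. With TMM scaling 0 of 5 were called lower in either knockout, and 1 of 5 (Stk25) was called higher in the Cab39l knockout. TMM moves the log2 ratio of every gene in Cab39l knockout over wild type up by 0.43. The share of all genes called with TMM was not counted. These counts therefore have no background and are not read as a result about the list.

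Of 5 AMPK regulatory subunits, Prkab1 and Prkag1 passed both limits, and 0 of 2 were called in any comparison. With TMM scaling 1 (Prkag1) was called higher in Cab39l knockout over wild type, and with median-of-ratios scaling 0 were. The share of all genes called with these scalings was not counted, so the Prkag1 call has no background and is not read as a result about the list. For the 2 genes the median log2 was 0.20 in Cab39l knockout over Lpar6 knockout, -0.06 in Cab39l knockout over wild type and -0.26 in Lpar6 knockout over wild type. Prkab1 stood at 36.5, 31.1 and 44.1 CPM and Prkag1 at 29.4, 26.0 and 26.3 CPM in the Cab39l knockout, the Lpar6 knockout and wild type. Prkag2 lay under 20 CPM in each library, at 16.3, 15.5 and 19.9 CPM in the same order. Its log2 ratios over wild type were -0.29 in the Cab39l knockout and -0.36 in the Lpar6 knockout. Prkab2, with fewer UMIs than Prkag2, stood at 9.18, 7.25 and 18.0 CPM in the same order. Its log2 ratios over wild type were -0.97 in the Cab39l knockout and -1.31 in the Lpar6 knockout. The 3 CREB coactivator genes Crtc1, Crtc2 and Crtc3 lay under 20 CPM in each library and entered no count. Crtc3 had the most UMIs, at 10.7, 10.4 and 19.5 CPM.

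Few genes had a pattern over the libraries like that of Cab39l. Likeness was the distance between pairs of log2 ratios (each knockout over wild type) over 5300 genes. The nearest was Cd59a, which encodes an inhibitor of complement, at a distance of 0.25, with 7.18 CPM in the Cab39l knockout, 26.8 CPM in the Lpar6 knockout and 27.7 CPM in wild type. The next were Amd2, Cyfip2, Vps13c and Ddx23, at distances of 0.66 to 0.80. Cab39 by contrast had close neighbours, Mfsd6, Ago2, Hs6st1, AU040320 and Hmbox1, all at distances up to 0.02. Ago2, a core protein of RNA silencing, stood at 22.5 CPM in the Cab39l knockout, 22.9 CPM in the Lpar6 knockout and 43.2 CPM in wild type. The named neighbours all lay under 50 CPM, so with a limit of 50 CPM 0 of 5 were shared for either scaffold gene. The nearest to Cab39l was then Xist, at a distance of 0.82. Xist stood at 359.0 CPM in the Cab39l knockout, 578.6 CPM in the Lpar6 knockout and 720.9 CPM in wild type. The labels do not give the sex of the mice, and the part of sex in the differences between libraries was not tested.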

How the data were processed

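The deposited matrices hold unnormalized UMI counts, made with Cell Ranger 3.0.2 on mm10 per the submitters' processing notes. They were used as deposited; the number of barcodes is that of matrices without empty droplets. Counting is of 3' tags, so long and short transcripts are not weighted by length. The annotation and strand setting of the counting are not given in the sources used here.

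Urothelial cells were taken by the rule in the text, and other classes from Leiden clusters (scanpy 1.11.5, leidenalg 0.10.2, resolution 1, 2000 variable genes without the members, 30 components, 15 neighbours, no batch correction) of barcodes with at least 500 genes and at most 20% mitochondrial UMIs. A name needed 2 markers among the top 10 genes and 3 in all. Scrublet called 0, 0 and 22 doublets in the Cab39l knockout, Lpar6 knockout and wild type, so the 6% with the highest scores were left out of clustering (399, 350 and 260); the urothelial sums kept them. UMIs were summed by class and library. Levels have exact 95% Poisson intervals, shares Clopper-Pearson intervals and log2 ratios, taken without a pseudocount, exact conditional binomial intervals. UMIs within cells of a pool are not independent, so these intervals are too narrow for mice. Transcript lengths, of the transcript with the longest coding sequence, came from GENCODE vM21, which held 99.6% of the gene identifiers. Steps were tested on simulated data. Named genes were the 5 members, up to 3 genes with the most UMIs of each of 4 lists, and the 5 genes nearest to each scaffold gene, without ribosomal, mitochondrial, haemoglobin and predicted genes. Of the lists, Sik1, Sik2, Oxsr1 and Prkab2 were named beyond this rule. Members and lists were chosen with earlier results of these data known. Python 3.11.15, numpy 2.4.6, scipy 1.17.1, pandas 2.3.3, Biopython 1.88 and matplotlib 3.10.9 were used. Alternatives were TMM and median-of-ratios scaling, other limits on depth, mitochondrial share and uroplakin share, equal weight per cell, thinning, doublets left out, length, and cluster subsets.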

Additional observations from a re-analysis of the deposited data

How the results depend on the processing

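The sign of the Cab39 ratio in Cab39l knockout over wild type (log2 -0.93) was negative in 16 of 16 alternatives, from -0.99 to -0.37. It was -0.69 at most 10% mitochondrial UMIs, -0.51 with TMM scaling, -0.53 with median-of-ratios scaling, -0.37 less the median of the same length bin, -0.98 with each cell weighing the same and -0.99 after thinning. Among alternatives chosen after seeing the data, it was -0.63 without clusters of over 75% wild-type cells, -0.57 in the Atf3 and Fosb cluster, -0.50 in the Krt15 and Jag2 cluster and -0.98 with no mitochondrial limit. The Cab39l ratio of the same libraries (-1.83) was negative in 16 of 16, at -1.71 with the 10% limit, -1.40 with TMM, -1.42 with median-of-ratios, -1.41 less the length median, -1.65 without the wild-type clusters, -1.67 in the Atf3 and Fosb cluster and -1.20 in the Krt15 and Jag2 cluster.

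Between the knockouts, Cab39 stayed between -0.046 and 0.031 over the alternatives, the upper value in the Krt15 and Jag2 cluster. In barcodes with 10 to 20% mitochondrial UMIs, which meet the urothelial rule, it was -0.23 (-0.37 to -0.09). Cab39l was -1.62 with the 10% limit, -1.35 in the Atf3 and Fosb cluster and -1.36 in the Krt15 and Jag2 cluster. Some signs turned: Stradb was 0.020 with TMM and 0.010 less the length median in Cab39l knockout over wild type, and 0.016 less the length median in Lpar6 knockout over wild type. Cab39l in Lpar6 knockout over wild type was 0.16 with TMM, 0.15 with median-of-ratios, 0.19 less the length median and 0.17 in the Krt15 and Jag2 cluster, against -0.26. TMM moved all log2 ratios by 0.43 (Cab39l knockout) and 0.42 (Lpar6 knockout) over wild type and by 0.01 between the knockouts. The counts of calls with TMM and median-of-ratios scaling were chosen after seeing the data. The cause of these differences was not tested. No paired analysis was possible because each genotype has 1 library. Depth limits the classes other than urothelial cells, whose Cab39l values rest on 22, 18 and 102 immune-like UMIs in the Cab39l knockout, the Lpar6 knockout and wild type.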

Other observations

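Barcodes above the mitochondrial limit, with the same depth and uroplakin rule, had 54.7 CPM of Cab39l in the Cab39l knockout (814 barcodes), 90.5 CPM in the Lpar6 knockout (627) and 119.3 CPM in wild type (1432). Cab39 stood at 79.4, 85.2 and 169.6 CPM in the same order. Over all barcodes of a library, with no filter, Cab39l was 32.6 CPM in the Cab39l knockout, 93.3 CPM in the Lpar6 knockout and 110.1 CPM in wild type, and Cab39 was 69.4, 71.4 and 134.5 CPM.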
